A study of Mus musculus with 12 samples.

Results

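The type I interferon response genes described here were 39 genes chosen by name: transcription factors, RNA and DNA sensors, antiviral enzymes and GTPases that cells switch on when they sense interferon. Each gene was represented by the probe set annotated to its symbol alone, or by the one with the highest mean where it had several. Of the 39, 35 were measured this way among 22180 genes, and 30 were tested among 19152 genes, those above a log2 value of 4.61, the table's 25th percentile, in 3 or more samples. Dtx3l, Ifi47 and Gbp2 lay only on probe sets shared with Parp9, Olfr56 and Gbp2b, and Ifi44 is not listed in the probe annotation used here. These 4 genes were not analysed here.

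The study measured RNA with a mouse Affymetrix array in sorted cells of mouse leukaemias. All groups carried MLL-AF9, a fusion of the Mll and Af9 genes that drives acute leukaemia. The label WT, for wild type, was given to leukaemias 73, 75 and 79, and the label Dnmt3b-knockin to leukaemias 81, 83 and 85. The enzyme Dnmt3b sets new DNA methylation marks, and the series asks how raising it bears on these leukaemias. Every leukaemia was sorted into 2 samples by c-kit, the receptor for stem cell factor on immature blood cells, which made 4 groups of 3 arrays. Bone marrow is named in the titles and spleen in the source field. Strain, age and sex, the promoter that drives the added Dnmt3b, any treatment and whether each number is a separate mouse are not given in the sources used here, so p-values measure the spread between these samples.

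Interferon alpha and beta bind the Ifnar receptor, whose kinases Jak1 and Tyk2 phosphorylate STAT proteins, among them Stat2. Stat2 and Irf9 are parts of a complex that binds the interferon-stimulated response element (ISRE) and switches on the genes described here, while the gamma-activated site (GAS) is the element known for the response to interferon gamma. In blood-forming tissue the response restrains viruses and can push stem cells out of quiescence, and many solid and blood cancers show some of it without infection.

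The arrays had medians of 5.56 to 5.71 over all probe sets, and arrays of a group correlated at 0.933 to 0.986. Dnmt3b RNA itself differed by 0.032 between the knock-in and wild-type labels over both fractions (log2, 95% confidence interval -0.19 to 0.25), so knock-in is used here as a label and not as a measured rise. Kit was 2.65-fold higher in c-kit-positive than in c-kit-negative cells (limma adjusted p = 7.78e-06). Both arrays of leukaemia 81 stood apart from the remaining 10 in Xist, the RNA that coats an inactive X, at 6.27 and 6.30 against 9.83 to 11.7. It also stood apart in the Y-linked genes Kdm5d, at 5.34 and 5.40 against 3.25 to 3.63, and Eif2s3y, at 5.81 and 6.33 against 3.37 to 3.54.

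Promoter sequence was at hand for 30 of the 39 genes, from RefSeq on build GRCm38.p6, as windows from 250 bases before to 50 bases after the start site. An ISRE-like motif, GAAANNGAAA or TTTCNNTTTC on the other strand, lay in a window of 15 of these 30 genes (50%), against 3.99% of all 27025 genes with a window. A GAS-like motif, TTCNNNGAA, which reads the same on both strands, lay in 9 of the 30 (30%), against 9.55% of all genes. Restricted to the bases before the start site, the ISRE-like share was 40% against 3.46%. A match is a run of letters and not a measured binding site, and the response element is part of how such genes are known. The 250 bases before the start are printed for 5 genes with different outcomes in these arrays, with the motif in capitals. Oas3 (chr5:120777660-120777909, minus strand) is shown as a gene that was higher in all 3 knock-in c-kit-negative arrays, with its ISRE-like match starting at position -75 from the start site. Ifit3 (chr19:34583279-34583528, plus strand), with matches at -156 and -122, is shown as a classical target that was not higher. Isg15 (chr4:156200819-156201068, minus strand), with overlapping matches at -78, -72 and -66, stayed below the filter. Irf1 (chr11:53769764-53770013, plus strand) carries a GAS-like match at -90, and Samhd1 (chr2:157135097-157135346, minus strand), the member with the largest c-kit difference, carries one at -235.
Oas3: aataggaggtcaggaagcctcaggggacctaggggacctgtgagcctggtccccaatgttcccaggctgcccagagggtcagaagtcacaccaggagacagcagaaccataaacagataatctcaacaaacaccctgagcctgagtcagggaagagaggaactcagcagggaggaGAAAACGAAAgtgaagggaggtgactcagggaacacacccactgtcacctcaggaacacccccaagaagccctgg
Ifit3: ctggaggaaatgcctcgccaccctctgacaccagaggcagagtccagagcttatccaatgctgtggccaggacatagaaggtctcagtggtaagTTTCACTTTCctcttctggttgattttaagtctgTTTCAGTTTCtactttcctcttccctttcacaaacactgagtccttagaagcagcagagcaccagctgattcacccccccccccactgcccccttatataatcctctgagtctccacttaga
Isg15: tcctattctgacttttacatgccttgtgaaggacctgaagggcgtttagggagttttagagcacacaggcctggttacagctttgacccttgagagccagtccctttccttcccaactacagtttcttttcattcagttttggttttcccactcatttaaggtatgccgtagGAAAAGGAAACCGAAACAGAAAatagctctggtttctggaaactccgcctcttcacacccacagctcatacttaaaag
Irf1: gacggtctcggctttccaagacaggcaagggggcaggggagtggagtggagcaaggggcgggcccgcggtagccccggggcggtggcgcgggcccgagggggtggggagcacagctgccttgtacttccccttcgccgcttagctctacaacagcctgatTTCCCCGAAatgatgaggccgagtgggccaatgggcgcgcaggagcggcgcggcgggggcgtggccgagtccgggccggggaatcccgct
Samhd1: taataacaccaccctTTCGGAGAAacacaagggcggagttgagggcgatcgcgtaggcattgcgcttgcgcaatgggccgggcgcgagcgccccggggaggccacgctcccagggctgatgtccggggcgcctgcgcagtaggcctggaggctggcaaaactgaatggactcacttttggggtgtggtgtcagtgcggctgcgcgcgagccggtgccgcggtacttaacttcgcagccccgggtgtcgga

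In c-kit-negative cells, 28 of the 30 tested interferon genes had higher means in the knock-in leukaemias, and 0 passed the threshold of an adjusted p of 0.05 with limma, against 0.0627% of all genes tested. Their median log2 difference was 0.28, against -0.0026 over all genes. At an unadjusted p under 0.05 there were 14, all higher, which is 46.7% of the 30 against 6.1% of all genes. In 10 genes every knock-in array lay above every wild-type array: Irf1, Ddx58, Zbp1, Oas3, Oasl2, Adar, Samhd1, Usp18, Parp14 and Trim30a. That is 33.3% of the 30, where 4.22% of all genes did so. The smallest adjusted p was 0.234, for Zbp1.

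**Figure D1:**
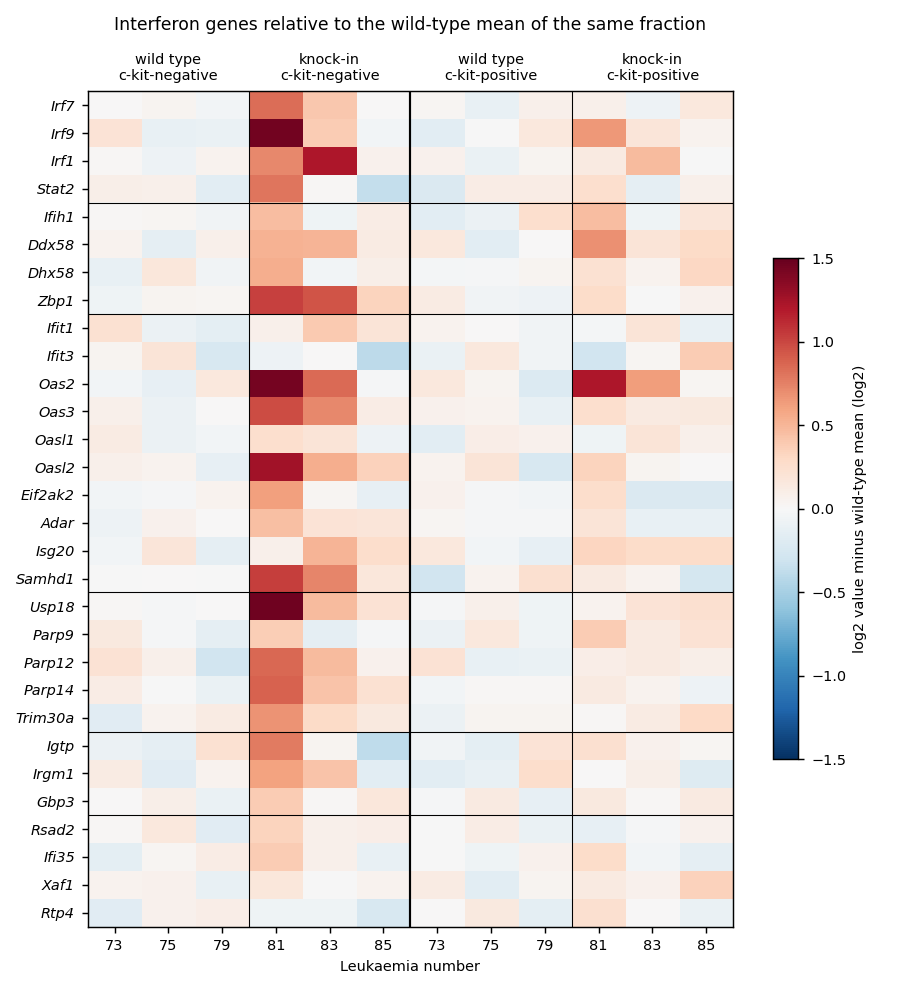
Log2 value of each of the 30 tested interferon genes (rows, by role) on each of the 12 arrays (columns, by group), minus the mean of the 3 wild-type arrays of the same c-kit fraction. Red is above and blue below that mean; the c-kit-negative array of leukaemia 81 is red in most rows, that of 83 in fewer, and that of 85 is near the wild-type arrays.

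The knock-in leukaemias differed among themselves. The c-kit-negative array of leukaemia 81 held the highest of the 6 c-kit-negative values in 25 of the 30 genes (83.3%), where it did so in 18.2% of all genes, and in 23 of the 30 it was the highest of all 12 arrays. Leukaemia 83 was highest in 3 genes, Irf1, Ifit1 and Isg20, and leukaemia 85 in 0. The median deviation of the 30 genes from the wild-type mean was 0.61 in leukaemia 81, 0.33 in 83 and 0.080 in 85. In leukaemia 81, 26 genes lay above all wild-type arrays (86.7%, against 24.8% of all genes), in 83 there were 18 (60%, against 25.2%) and in 85 there were 13 (43.3%, against 36.6%). The range within the 3 knock-in arrays had a median of 0.62 over the 30 genes, against 0.34 over all genes, whereas within the 3 wild-type arrays these medians were 0.23 and 0.22.

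**Figure D2:**
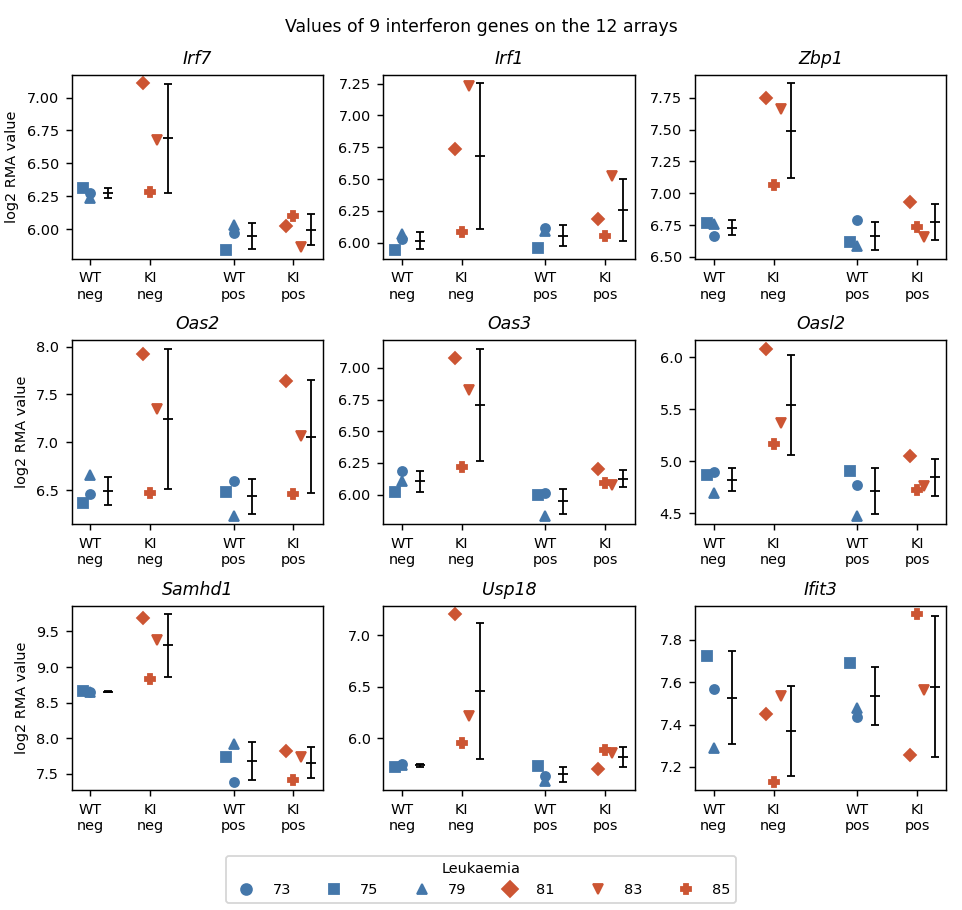
Log2 RMA value of 9 interferon genes on every array, by genotype (WT, wild type; KI, knock-in) and c-kit fraction (neg, pos); symbols mark the leukaemia, and bars beside them show the mean and SD of 3 arrays. In c-kit-negative cells leukaemia 81 is the highest for Irf7, Zbp1, Oas2, Oas3, Oasl2, Samhd1 and Usp18, while Ifit3 values of both genotypes overlap; each vertical axis has its own range and does not start at 0.

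Among the transcription factors, Irf7, which amplifies interferon production, measured 6.28, 6.31 and 6.24 in c-kit-negative cells of leukaemias 73, 75 and 79. In leukaemias 81, 83 and 85 it measured 7.11, 6.68 and 6.28. Leukaemias 81 and 83 lay above the wild-type range and 85 within it; the log2 difference was 0.41 (SE 0.16, limma adjusted p = 0.787). Irf1, induced by interferon gamma through its GAS element, measured 6.03, 5.94 and 6.07 in the wild-type and 6.73, 7.23 and 6.08 in the knock-in leukaemias. Here 83 was the highest, and 85 exceeded the top wild-type array by less than the wild-type range; the difference was 0.67 (SE 0.22, adjusted p = 0.689). Irf9, the DNA-binding part of the STAT complex, measured 6.78, 6.46 and 6.47 in the wild-type and 8.02, 6.95 and 6.53 in the knock-in group. Leukaemias 81 and 83, but not 85, lay above the wild-type range, and the difference was 0.60. Stat2, its partner, differed by 0.15. Irf9 without leukaemia 81 had 0.17, and Stat2 had -0.17.

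Among the sensors, Zbp1, which binds Z-form nucleic acids and can start necroptosis, had the smallest p of the 30 genes. It measured 6.66, 6.77 and 6.76 in the c-kit-negative wild-type samples, and 7.75, 7.67 and 7.06 in leukaemias 81, 83 and 85. All 3 knock-in arrays lay above the wild-type ones, and the group means were 6.73 ± 0.058 and 7.49 ± 0.38 (SD, n = 3), or 1.70-fold (adjusted p = 0.234). Ddx58, which encodes the RNA sensor RIG-I, measured 6.40, 6.21 and 6.43 in the wild-type and 6.87, 6.86 and 6.47 in the knock-in leukaemias. The groups did not overlap, although 85 lay close to leukaemia 79; the difference was 0.39. Ifih1 (the long-RNA sensor MDA5) differed by 0.17 and the regulatory helicase Dhx58 by 0.20, and their groups overlapped.

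The 10 tested RNA-binding and nuclease effectors had differences from -0.16 to 0.75 in c-kit-negative cells. Oas3, a synthetase of the 2-5A messenger that activates RNase L, measured 6.19, 6.02 and 6.11 in the wild-type c-kit-negative samples. In leukaemias 81, 83 and 85 it measured 7.08, 6.83 and 6.21. The groups did not overlap, but 85 exceeded the top wild-type array only slightly, and the difference was 0.60 (SE 0.17, adjusted p = 0.569). Oas2, of the same family, spread widely: 6.46, 6.37 and 6.66 in the wild-type and 7.93, 7.34 and 6.47 in the knock-in leukaemias, a difference of 0.75 with overlapping groups. The family member Oasl2 measured 4.90, 4.87 and 4.70 in the wild-type and 6.08, 5.37 and 5.17 in the knock-in leukaemias, a difference of 0.72 without overlap. Oas3, Oas2 and Oasl2 shared the order of leukaemias 81, 83 and 85, as did the related Oasl1, whose difference was 0.12.

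Samhd1, a dNTP hydrolase that starves reverse transcription, was tightly grouped in wild-type c-kit-negative cells at 8.65, 8.67 and 8.66. It measured 9.69, 9.39 and 8.83 in leukaemias 81, 83 and 85, a difference of 0.65 (SE 0.19, adjusted p = 0.626). All 3 knock-in arrays stood above the narrow wild-type range, in the order 81, 83, 85. The RNA-editing enzyme gene Adar differed by 0.28, also without overlap. Isg20, an RNA exonuclease, measured 6.63, 6.85 and 6.54 in the wild-type and 6.76, 7.19 and 6.94 in the knock-in leukaemias. Here leukaemia 81 was the lowest knock-in array and fell within the wild-type range, and the difference was 0.28. The kinase Eif2ak2 (PKR), which halts translation, differed by 0.18.

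The IFIT genes, whose proteins bind foreign RNA ends, had smaller values. Ifit3 measured 7.57, 7.72 and 7.29 in the wild-type and 7.45, 7.53 and 7.13 in the knock-in c-kit-negative samples. Its groups overlapped, and its difference of -0.16 (95% confidence interval -0.53 to 0.21) was the lowest of the 30 genes, in a gene with the ISRE-like matches printed above. Ifit1 differed by 0.22.

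Among genes of the ISG15, ubiquitin and ADP-ribose systems, Usp18, the protease that removes ISG15 and dampens the receptor, measured 5.76, 5.72 and 5.74 in wild-type c-kit-negative samples. It measured 7.20, 6.22 and 5.95 in leukaemias 81, 83 and 85. The wild-type arrays were within a narrow range, all knock-in arrays were above it, and leukaemia 81 was far above the other knock-in arrays; the difference was 0.72 (SE 0.23, adjusted p = 0.685). Parp14, an ADP-ribosyl transferase, measured 5.998, 5.88 and 5.78 in the wild-type and 6.77, 6.31 and 6.12 in the knock-in leukaemias, a difference of 0.51 without overlap. Trim30a, a ubiquitin ligase family gene, measured 4.77, 4.99 and 5.07 in the wild-type and 5.62, 5.23 and 5.09 in the knock-in leukaemias. Its groups did not overlap, with 85 close to the top wild-type array, and differed by 0.37. Parp12 differed by 0.47 and Parp9 by 0.070.

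The immunity-related and guanylate-binding GTPases, which attack vacuoles of intracellular pathogens, and the remaining effectors showed smaller values, with 0 of 7 at an unadjusted p under 0.05. Irgm1 measured 4.82, 4.52 and 4.75 in the wild-type and 5.30, 5.13 and 4.54 in the knock-in c-kit-negative samples, a difference of 0.29. Gbp3 measured 5.23, 5.32 and 5.13 in the wild-type and 5.603, 5.25 and 5.40 in the knock-in samples, a difference of 0.19. For both genes the groups overlapped. Rsad2, which encodes the antiviral radical SAM enzyme viperin, measured 5.04, 5.18 and 4.86 in the wild-type and 5.35, 5.10 and 5.12 in the knock-in samples, a difference of 0.17. Xaf1, a proapoptotic interferon-induced gene, measured 6.29, 6.30 and 6.12 in the wild-type and 6.41, 6.24 and 6.29 in the knock-in samples, a difference of 0.077. Both overlapped between genotypes. Igtp differed by 0.15, Ifi35 by 0.11 and the chaperone gene Rtp4 by -0.12.

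The 5 members that were measured but not tested, among them Isg15 and Mx1, stayed near or below the filter on all arrays. Isg15, the ubiquitin-like modifier, ranged from 3.74 to 4.07 over the 12 arrays, Mx1 from 3.55 to 3.95, Ifit2 from 4.01 to 4.56 and the tether gene Bst2 from 3.90 to 4.36. Mx2 ranged from 3.81 to 4.66, and its only value above the filter was that of leukaemia 81 in c-kit-negative cells. The mean differences in c-kit-negative cells were 0.12 for Isg15, -0.018 for Mx1, -0.033 for Ifit2, 0.17 for Bst2 and 0.18 for Mx2.

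The group difference moved when 1 leukaemia was left out. Without leukaemia 81 the median of the 30 genes was 0.18 and 23 were positive: Eif2ak2, Ifi35, Igtp, Parp9 and Stat2 turned negative, at -0.045, -0.020, -0.17, -0.081 and -0.17. Irf9 then had 0.17 in place of 0.60 and Usp18 0.34 in place of 0.72, while Zbp1 and Irf1 each had 0.64. The number at an unadjusted p under 0.05 was then 9, which is 30% of the 30, against 14.2% of all genes, and it was also 9 without leukaemia 79, against 4.77%. Without leukaemia 85 the median was 0.41, and 3 genes passed the threshold (10%, against 0.151% of all genes): Zbp1 at 0.98 (adjusted p = 0.00823), Oas3 at 0.85 (adjusted p = 0.0159) and Irf1 at 0.97 (adjusted p = 0.035). Without 83 the median was 0.30 and Irf1 had 0.39. Leaving out a wild-type leukaemia gave medians of 0.27 to 0.30 with 0 genes past the threshold.

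**Figure D3:**
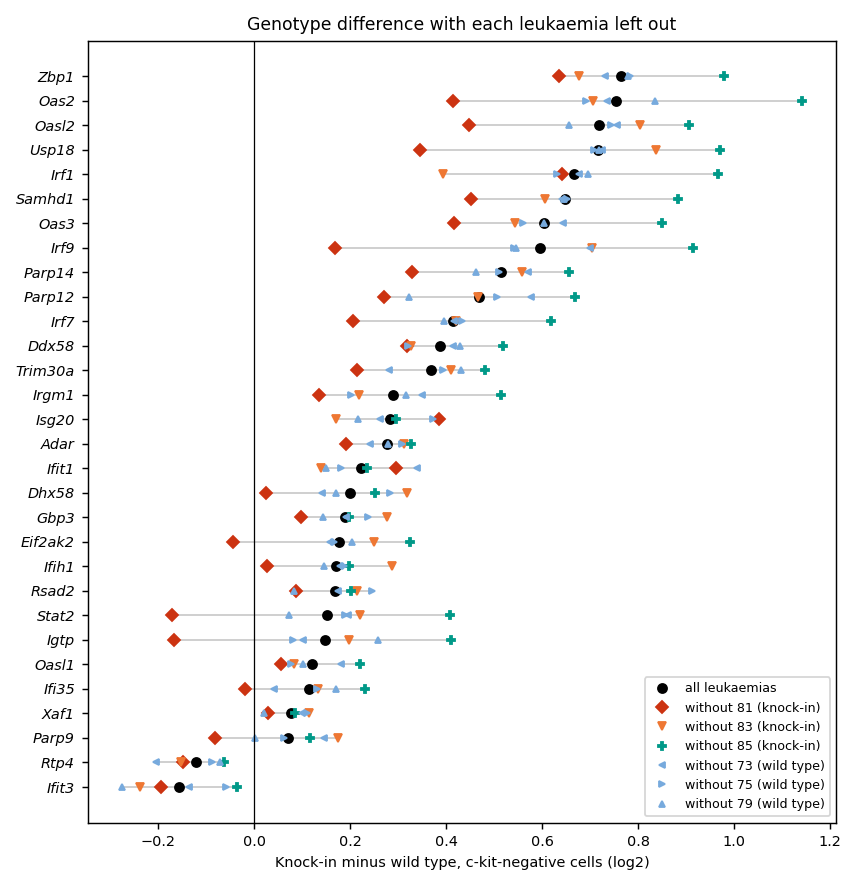
Difference between knock-in and wild-type means in c-kit-negative cells (log2) for each of the 30 genes, with all leukaemias (black) and with each leukaemia left out (coloured symbols), ordered by the value with all leukaemias. Values without leukaemia 81 lie to the left and those without 85 to the right of the black points for most genes, and 5 genes cross 0 without leukaemia 81.

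Markers of other cells followed the order of the interferon genes in leukaemias 81, 83 and 85 in some lists and not in others. The mean of 7 measured B-cell markers ran from 5.82 to 5.86 in the wild-type c-kit-negative samples and was 6.44, 5.91 and 6.06 in leukaemias 81, 83 and 85, so 83 was the lowest knock-in array (0 of 7 passed the threshold). The mean of 12 T and NK markers ran from 5.05 to 5.09 in the wild-type and was 5.41, 5.21 and 5.35 in the knock-in leukaemias, again lowest in 83 (0 of 10 tested passed, and Gzma was below the filter on all arrays). Monocyte markers ran from 7.93 to 8.78 in the wild-type and were 8.95, 8.57 and 8.08 in the knock-in leukaemias, the order of the interferon genes (0 of 7 passed). Fn1 was the exception among these markers, at 8.845, 10.08 and 9.626 in leukaemias 81, 83 and 85, and was lowest in 81 of all c-kit-negative arrays. Late neutrophil markers ran from 8.42 to 9.23 in the wild-type and from 9.89 to 10.2 in the knock-in group, with 3 of 10 higher (Ly6g, Ltf and Cxcr2). Their mean was lowest in leukaemia 81 among the knock-in arrays, but these 3 genes were each highest there. In leukaemias 81, 83 and 85, Ltf measured 10.71, 10.12 and 9.949, Cxcr2 8.536, 8.226 and 8.065, and Ly6g 9.624, 9.25 and 9.306. Lcn2, Ngp, Mmp8, Mmp9 and Retnlg were lowest in 81, and Camp and Cd177 in 83. Plasmacytoid dendritic cell markers, a cell type known for interferon production, ran from 5.77 to 5.97 and from 5.89 to 5.97 (0 of 7 passed), and macrophage markers from 5.74 to 5.94 and from 5.71 to 5.81 (0 of 7 passed), with Cd5l below the filter on all arrays. Erythroid markers ran from 5.51 to 5.91 and from 5.33 to 5.72 (0 of 3 passed), and myeloid progenitor markers from 7.85 to 8.38 and from 7.54 to 8.25 (0 of 12 passed). The part of these markers, of Xist and of the Y-linked genes in the interferon values was not tested. In bulk samples, fewer cells of a type and less RNA per cell cannot be told apart.

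In c-kit-positive cells the interferon genes were closer between genotypes. Of the 30, 25 had higher means in the knock-in leukaemias, with a median of 0.11 against 0.014 over all genes, and 0 passed the threshold, against 0.141% of all genes. At an unadjusted p under 0.05 there were 2, Ddx58 and Isg20 (6.67%, against 9.89% of all genes). In 4 genes, Ddx58, Dhx58, Oas3 and Isg20, the groups did not overlap (13.3%, against 7.56%). Ddx58 measured 6.55, 6.23 and 6.40 in the wild-type and 7.08, 6.58 and 6.68 in the knock-in leukaemias, a difference of 0.39 (SE 0.15, adjusted p = 0.409). Isg20 measured 6.73, 6.53 and 6.45 against 6.90, 6.84 and 6.85, a difference of 0.29. Both genes had about the same difference in either fraction. Without leukaemia 81 the median was 0.066 against 0.025 over all genes. The number at an unadjusted p under 0.05 was 0 without leukaemia 75, 79 or 81, against 6.44%, 6.22% and 15.1% of all genes. Late neutrophil markers again differed in this fraction, from 7.28 to 7.84 in the wild-type and from 8.32 to 8.68 in the knock-in group, with Ly6g at 2.10 and Ltf at 2.48 (limma adjusted p = 0.00710 for each), and 0 markers of the other lists passed. Their part in the interferon values was not tested.

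Oas2 carried the order of its leukaemias into this fraction. It measured 6.59, 6.48 and 6.23 in leukaemias 73, 75 and 79 and 7.64, 7.07 and 6.46 in 81, 83 and 85, a difference of 0.62 with overlapping groups. Usp18 did not: its c-kit-positive value in leukaemia 81 was 5.71, the lowest of the knock-in leukaemias and within the wild-type values of 5.64, 5.73 and 5.59. The c-kit-positive array of leukaemia 81 was the highest of 6 in 17 of the 30 genes, where it was highest in 14.5% of all genes. Leukaemias 81, 83 and 85 had median deviations from the wild-type mean of 0.21, 0.057 and 0.073.

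When both fractions of a leukaemia were averaged, 28 of the 30 genes had higher knock-in means, with a median of 0.19. The count past the threshold was 0, against 0.0261% of all genes, and 10 had an unadjusted p under 0.05 (33.3%, against 8.37%). The 3 knock-in leukaemias lay above the 3 wild-type ones in 10 genes (33.3%, against 5.52%). Zbp1 had the smallest p, with 6.73, 6.69 and 6.67 in leukaemias 73, 75 and 79 and 7.34, 7.16 and 6.90 in 81, 83 and 85. Its difference was 0.44 (SE 0.12, adjusted p = 0.343), and an exact two-sided permutation test over the 6 leukaemias gave p = 0.1, the smallest it allows. Usp18 differed by 0.44, Ddx58 by 0.39, Oas3 by 0.39, Isg20 by 0.29 and Trim30a by 0.26, each without overlap. Irf1 differed by 0.43, Irf7 by 0.23, Irgm1 by 0.13, Gbp3 by 0.14, Xaf1 by 0.13 and Rsad2 by 0.071. Without leukaemia 81 the median was 0.12, and without 85 it was 0.28, with 0 genes past the threshold either time. The number at an unadjusted p under 0.05 was 5 without leukaemia 79, against 5.45% of all genes. It was also 5 without 81, a share of the 30 no larger than the 17.5% of all genes. There were 6 without 73 or 75, against 7.57% and 4.98%, and 15 without 85, against 8.35%. Of the markers of other cells, Ly6g and Ltf passed over both fractions, at 2.35 and 2.65 (adjusted p = 0.00272 and 0.00398), and their part in these values was not tested.

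More of the interferon genes passed between the c-kit fractions than between the genotypes. The same held for all genes, at 8.25% between c-kit fractions over both genotypes against 0.0261% to 0.141% between genotypes. Over both genotypes, 4 of the 30 genes were lower in c-kit-positive cells past the threshold (Samhd1, Irf7, Zbp1 and Parp14) and 0 were higher. That is 13.3%, where 8.25% of all genes passed in either direction. The median was -0.14, against -0.032 over all genes. At an unadjusted p under 0.05 there were 9 (30%, against 23.4%). In 3 genes, Irf7, Oas3 and Samhd1, every leukaemia had the lower value in its c-kit-positive cells (10%, against 8.97%). With the leukaemia as a block, which pairs both arrays, 7 genes passed: Irf9, Oas3 and Oasl2 were added, with adjusted p-values of 0.0359, 0.0168 and 0.00536. These 7 are 23.3% of the 30, while 19.6% of all genes passed with the block, so the share of interferon genes was near that of all genes.

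Samhd1 (probe set 17393658) had the largest c-kit difference of the 30 genes. In c-kit-positive cells it measured 7.39, 7.73 and 7.92 in the wild-type group (73, 75, 79) and 7.82, 7.74 and 7.41 in the knock-in group (81, 83, 85). Every one lay below the lowest c-kit-negative value of 8.65, and Samhd1 was 2.48-fold lower (log2 -1.31, SE 0.14, limma adjusted p = 0.000177). Within leukaemias the log2 difference was -1.25, -0.93 and -0.73 in 73, 75 and 79, and -1.87, -1.65 and -1.42 in 81, 83 and 85.

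Irf7 (probe set 17497813) measured 5.97, 5.84 and 6.03 in the c-kit-positive wild-type and 6.02, 5.87 and 6.10 in the knock-in samples. All were below every c-kit-negative value, and the difference was -0.51 (SE 0.11, adjusted p = 0.0165). Zbp1 (probe set 17395079) measured 6.79, 6.61 and 6.58 in the c-kit-positive wild-type and 6.93, 6.65 and 6.73 in the knock-in samples, a difference of -0.39 (SE 0.11, adjusted p = 0.0457). It was lower in 5 of 6 leukaemias, with 73 the exception at 0.13, and most so in 81 and 83 at -0.82 and -1.01. Parp14 (probe set 17330099) measured 5.73, 5.79 and 5.79 against 5.90, 5.82 and 5.69, a difference of -0.36 (SE 0.10, adjusted p = 0.0459). Within leukaemias its difference was -0.87, -0.49 and -0.42 in the knock-in group, against -0.27, -0.088 and 0.0069 in the wild-type ones.

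The other genes named for c-kit did not pass. Oas3 was lower in c-kit-positive cells of all 6 leukaemias, by values from -0.025 in leukaemia 75 to -0.88 in 81, with a mean difference of -0.37 (adjusted p = 0.0796). Its c-kit-positive levels were 6.01, 5.995 and 5.83 in wild-type and 6.20, 6.08 and 6.09 in the knock-in leukaemias. Irf9 measured 6.19, 6.34 and 6.50 in the wild-type and 6.999, 6.52 and 6.39 in the knock-in c-kit-positive samples, a difference of -0.38. These overlapped the c-kit-negative values of both genotypes. Usp18 differed by -0.36 and Xaf1 by -0.19. The Usp18 value came largely from leukaemia 81, where its fractions were -1.49 apart, while the other leukaemias lay between -0.36 and 0.011. Ifih1, at 6.87, 6.94 and 7.28 in the wild-type and 7.49, 6.97 and 7.21 in the knock-in c-kit-positive samples, had a difference of 0.16. Irgm1, Gbp3 and Rsad2 had 0.13, 0.14 and -0.14.

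**Figure D4:**
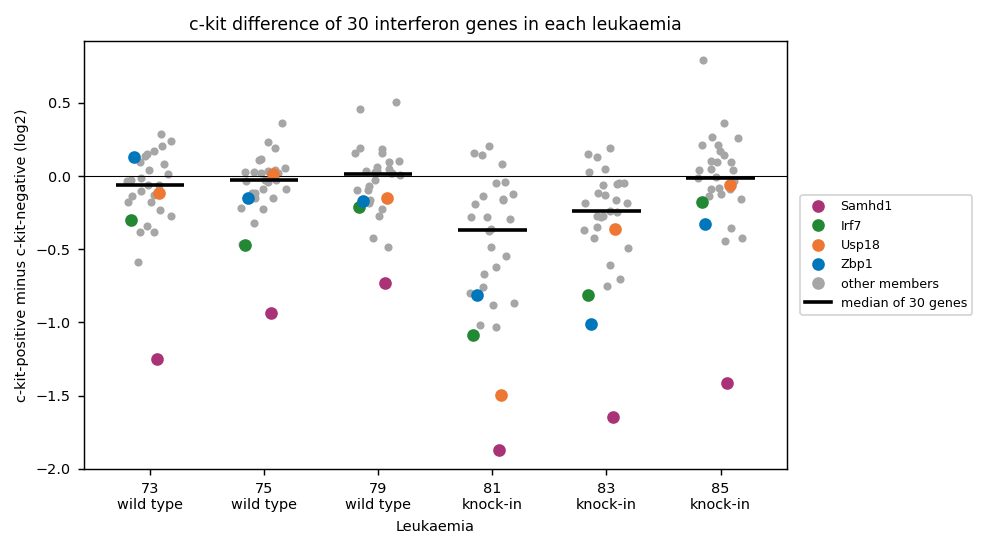
Difference between the c-kit-positive and the c-kit-negative array of each leukaemia (log2) for the 30 interferon genes; each point is a gene, with 4 genes coloured, and the bar is the median of 30. Samhd1 is below 0 in all 6 leukaemias, and the medians are lowest in leukaemias 81 and 83, at -0.37 and -0.24.

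Within wild-type leukaemias Samhd1 alone passed (-0.97, adjusted p = 0.0426), which is 3.33% of the 30, against 0.768% of all genes. Its call was lost without leukaemia 73, 75 or 79. It was also lost without the knock-in leukaemia 83, where the difference stayed at -0.97 and only the shared spread and the adjustment changed. Within knock-in leukaemias Samhd1 (-1.65, adjusted p = 0.00115), Zbp1 (-0.72, adjusted p = 0.0335) and Irf7 (-0.69, adjusted p = 0.0489) passed, which is 10%, against 1.88% of all genes. With the leukaemia as a block there were 6 in the knock-in leukaemias (20%, against 8.7% of all genes) and Samhd1 alone in the wild-type ones (3.33%, against 11% of all genes). In the knock-in leukaemias, only Samhd1 passed without 81 (3.33%, against 1.86% of all genes) or 83 (3.33%, against 0.303%). Leaving out the wild-type leukaemia 73, 75 or 79 also left only Samhd1, against 1.19% to 1.92% of all genes. Irf7 and Zbp1 then kept their differences of -0.69 and -0.72, as only the shared spread and the adjustment changed. The difference between these fraction effects, tested as the interaction of genotype and fraction, gave 0 of 30 genes and 0% of all genes past the threshold with limma. At an unadjusted p under 0.05 there were 3 interferon genes (10%, against 2.23%): Samhd1 at -0.67, Zbp1 at -0.65 and Parp14 at -0.48, each with an adjusted p of 1. That number was 7 with the leukaemia as a block (23.3%, against 5.75% of all genes). It was 0 without leukaemia 83, against 1.84% of all genes, and 1 without 75 or 79, against 1.7% and 1.76%. There were 2 without 73 or 81, against 1.73% and 2.64%, and 10 without 85, against 3.58%. In 2 of the 30 genes, Irf1 and Adar, the difference had one sign in all wild-type and the other in all knock-in leukaemias (6.67%, against 1.71% of all genes). The median c-kit difference was -0.059, -0.028 and 0.012 in leukaemias 73, 75 and 79, and -0.37, -0.24 and -0.011 in 81, 83 and 85, so that 85 again lay with the wild-type leukaemias.

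Over both genotypes the c-kit calls also depended on single leukaemias. Samhd1 alone remained without leukaemia 73, 75 or 83 (3.33%, against 2.63% to 2.97% of all genes). Irf7 and Samhd1 remained without 79 (6.67%, against 5.36%), and Irf7, Parp14 and Samhd1 without 81 (10%, against 10.9%). Without 85, Oas3 joined the 4 (16.7%, against 8.27%). Centring each array on its median left Irf7 and Samhd1 (6.67%, against 7.59%). Mature cell markers moved with the sort: 7 of 10 late neutrophil markers and 5 of 7 monocyte markers were lower in c-kit-positive cells, and 5 of 12 myeloid progenitor markers were higher, among them Mpo, Elane and the sorted marker Kit itself. Of 7 B-cell markers 1 was lower (Ighm), and 0 of the T and NK, plasmacytoid dendritic, macrophage and erythroid markers passed. The part of these cells in the lower interferon genes was not tested.

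Other genes of the pathway were read from lists chosen alongside the members. Of 13 tested interferon ligand genes, 0 passed with limma in either fraction between genotypes or between c-kit fractions, with 1 lower at an unadjusted p under 0.05 in c-kit-negative cells and 1 higher in c-kit-positive cells, Ifna2 at 0.42 (adjusted p = 0.373). Ifnb1, the gene of interferon beta, ranged from 4.09 to 4.57 on the 12 arrays, below the filter. Of 10 receptor, kinase and STAT genes 0 passed in these comparisons. Between genotypes, 1 had a higher value at an unadjusted p under 0.05 in c-kit-negative cells, the receptor gene Ifnlr1 at 0.49 (adjusted p = 0.750), where the list's median was 0.070. In c-kit-positive cells 1 had a lower value, the interferon gamma receptor gene Ifngr1 at -0.57 (adjusted p = 0.216), where the median was -0.093. Between c-kit fractions 1 was higher and 3 were lower at an unadjusted p under 0.05. Of 15 genes that induce interferon, 3 endosomal toll-like receptor genes were lower in c-kit-positive cells: Tlr7 at -0.79, Tlr8 at -0.70 and Tlr9 at -0.70 (adjusted p = 0.00300, 0.0149 and 0.00394). In the genotype comparison of c-kit-negative cells their list had a median of 0.022, and the DNA sensor gene Aim2 had -0.60 (adjusted p = 0.689). Of 9 negative regulators 1 passed, Rnf125, a ubiquitin ligase gene, at 0.46 in c-kit-positive cells (adjusted p = 0.0173), and Socs1, which inhibits Jak kinases, had 0.36 between genotypes in c-kit-negative cells (adjusted p = 0.673).

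A further 38 tested interferon-induced genes, none of them among the 39, had mostly positive values in c-kit-negative cells. In 36 of them the knock-in mean was higher, where 49.4% of all genes were, with a median of 0.22. Of the 38, 11 had an unadjusted p under 0.05, against 6.1% of all genes, and 0 passed the threshold. Ddx60, an RNA helicase gene, had 0.32, the checkpoint ligand gene Cd274 0.31, Ms4a4c 0.79 and Epsti1 0.63. In leukaemias 81, 83 and 85, Ms4a4c measured 7.06, 6.895 and 5.70 and Epsti1 8.41, 7.69 and 7.11. For both, 81 was the highest and 85 lay within the wild-type range. Ddx60 measured 5.23, 5.16 and 5.42 and Cd274 5.98, 6.11 and 6.03, all above the wild-type arrays and not highest in 81. Values with 1 leukaemia left out are not given for these 38 genes. In c-kit-positive cells 24 of the 38 were higher, against 53.3% of all genes, with a median of 0.051. Between the fractions Ms4a4c (-1.22, adjusted p = 0.00449) and Trim34a (-0.30, adjusted p = 0.0331) were lower and Pnpt1, a mitochondrial RNA nuclease gene, was higher in c-kit-positive cells (0.55, adjusted p = 0.0128). Irf5, Oas1a and some others of these lists were not analysed here.

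Of the tested members with a promoter window, 12 had an ISRE-like match and 11 had none. The 12 genes with a match had a median genotype difference of 0.18 in c-kit-negative cells, from -0.16 (Ifit3) to 0.60 (Oas3), and those without had 0.41, from 0.077 (Xaf1) to 0.72 (Oasl2). Between c-kit fractions the medians were -0.037 with and -0.19 without a match. These are descriptions of windows of 300 bases, and no match says only that these letters are not there.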

How the data were processed

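Total RNA of 12 samples was labelled with biotin and hybridised to Affymetrix arrays, per the labels' protocols. The deposited table holds log2 values for 41345 probe sets, made by the authors with RMA in Affymetrix Expression Console, per the submitters' processing notes; RMA compresses low signals, so differences of dim genes are understated. The log2 scale also rests on the range of the values. Of the probe sets, 23521 had 1 gene symbol, 1814 had several and were not used, and 16010 were not listed.

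Values were used as deposited. For the fits within fractions, limma 3.58.1 in R 4.3.3 was fitted to 12 arrays as 4 group means with a shared spread (lmFit, contrasts.fit, eBayes); genotype over both fractions used leukaemia means, 3 against 3. All tests are two-sided with Benjamini-Hochberg adjustment over 19152 genes, and intervals are at 95%. The model was tested on simulated data. Arrays have no depth, so their number limits the precision.

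Both arrays of a leukaemia share its number in the labels, and their deviations from the group means correlated at 0.279 to 0.601 in the 6 leukaemias, so the number was used as a block in an alternative fit (statmod 1.5.0). Other alternatives were repeated quantile normalization, median centring, no filter or a filter at the 50th percentile, the mean of all probe sets, and each leukaemia left out. The members and lists were chosen with earlier results of these data known. Values on every array are given for members past the threshold in the main fits. In each of 6 role groups, the 2 with the smallest p between genotypes and the 2 between c-kit fractions have values in at least 1 fraction. Oas2, Oasl2 and Ifit3 were added after their values were seen. Up to 4 genes were named per other list.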

Additional observations from a re-analysis of the deposited data

Results flagged for a closer look

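In 2 of the 30 interferon genes, Irf1 and Adar, the c-kit difference pointed up in all 3 wild-type leukaemias and down in all 3 knock-in leukaemias. Opposite signs of this kind, in either direction, were seen in 6.67% of the 30 genes, against 1.71% of all 19152 genes. Irf1 was 0.083, 0.018 and 0.023 higher in c-kit-positive cells of leukaemias 73, 75 and 79, and its differences were -0.54, -0.70 and -0.032 in 81, 83 and 85. The interaction was -0.47 (SE 0.31, limma adjusted p = 1). Adar had 0.24, 0.053 and 0.10 in the wild-type and -0.13, -0.19 and -0.15 in the knock-in leukaemias, with an interaction of -0.29 (SE 0.16, limma adjusted p = 1). Neither passed the threshold.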

How the results depend on the processing

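The direction of the median difference of the 30 genes was the same in all 7 comparisons under every alternative run, and no interferon gene passed between genotypes except without leukaemia 85, when 3 did in c-kit-negative cells. The number past the threshold in c-kit-negative cells ran from 0 to 3 with 1 leukaemia left out, where 0.0157% to 0.433% of all genes passed. Between c-kit fractions over both genotypes, 4 genes passed (13.3%, against 8.25% of all genes). With arrays centred on the median there were 2 (6.67%, against 7.59%), and with no filter 2 (5.71%, against 6.75%). The replicate block gave 7 (23.3%, against 19.6%). With 1 leukaemia left out there were 1 to 5, where 2.63% to 10.9% of all genes passed. In wild-type leukaemias 1 gene passed (3.33%, against 0.768% of all genes), and 0 with centred arrays (against 0.361%). With 1 leukaemia left out there were 0 to 1, where 0.00522% to 3.46% of all genes passed. The median moved from -0.065 to -0.013 with centred arrays. In knock-in leukaemias 3 passed (10%, against 1.88% of all genes), and 1 with centred arrays (3.33%, against 1.36%). There were 6 with the replicate block (20%, against 8.7%), and 1 to 5 with 1 leukaemia left out, where 0.303% to 1.92% of all genes passed. Without only the c-kit-negative array of leukaemia 81, an alternative added after seeing the data, 1 gene passed in knock-in leukaemias. That is 3.33%, against 4.99% of all genes, and the interaction median was then -0.041 in place of -0.20. With 1 leukaemia left out this median ran from -0.28 to -0.082. The replicate block changed no other count of interferon genes past the threshold. Over all genes it moved the count from 1580 to 3758 between c-kit fractions, from 147 to 2109 in wild-type and from 360 to 1666 in knock-in leukaemias, and from 5 to 34 between genotypes over both fractions. Between genotypes in c-kit-negative cells, 5 genes changed sign without leukaemia 81, and alike without its c-kit-negative array: Eif2ak2 (-0.045), Ifi35 (-0.020), Igtp (-0.17), Parp9 (-0.081) and Stat2 (-0.17); with 1 leukaemia left out in turn these ran from -0.045 to 0.33, -0.020 to 0.23, -0.17 to 0.41, -0.081 to 0.17 and -0.17 to 0.41. The cause of these changes was not tested. With 3 arrays per group, 14 of 30 genes had an unadjusted p under 0.05 between genotypes in c-kit-negative cells and 0 passed after adjustment.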
